A study of Canis lupus familiaris with 6 samples.

Results

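This account describes 2 of the 6 arrays of a study of dog kidney epithelial cells: those taken 60 h after tetracycline was added, or not added, to cells that carry an inducible hairpin against scribble. The cells were MDCK-II scribKD cells, a derivative of the Madin-Darby canine kidney line in which tetracycline switches on a short hairpin RNA directed at scribble. The group with tetracycline received 5 µg/ml 6 h after plating and the group without tetracycline received none; both were the same cells in the same medium, so both carried the hairpin construct. Companion pairs were taken at 30 h and 45 h. Each array held the RNA of 3 wells mixed before labelling, so each arm at each time was 1 measurement, and the labels do not say how many clones the scribKD line comes from. No cells without the hairpin that received tetracycline are analysed here, so the drug and the hairpin cannot be told apart.

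Scribble is a scaffold protein of the basolateral side of epithelial cells, where it works with Dlg and Lgl to keep the apical and basolateral domains separate. MDCK cells are a standard model of this polarity: they form a tight monolayer, seal it with tight junctions and keep many transport proteins of the renal tubule. Cells that lose such order can alter adhesion, the secretion of proteases and cytokines, and the set of transporters they make.

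A level is given here as log2 of the array's processed signal less that array's 75th percentile, so a level of 0 is the signal of the probe at that percentile and each step of 1 is a 2-fold step. The 60 h difference is the level with tetracycline minus the level without it. Of 42695 features (a feature is a named gene, taken by its brightest probe, or a probe with no gene name), 27612 were well above background on both 60 h arrays, and 991 of these were named dog genes. A further 74 named genes were well above background on 1 of the 2 arrays. Since levels of different probes do not compare with each other, only differences within a gene are read.

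No probe could be named as SCRIB through the gene table used, so the hairpin's target was not analysed here. All 6 arrays had 43803 non-control spots, of which between 64.3% and 68.8% were well above background; no spot was saturated. Of 11 named markers of kidney tubule epithelium, 10 were well above background on all 6 arrays, among them E-cadherin (CDH1) and the tight junction proteins occludin (OCLN), cingulin (CGN) and TJP1; uromodulin (UMOD) was well above background on none. Of markers of other cells, 4 of 6 for fibroblasts, 2 of 4 for leukocytes, 3 of 5 for endothelium and 3 of 7 for muscle were well above background on all 6 arrays, while DCN and FBN1 of fibroblasts, MS4A1 and FCER1A of leukocytes and DES, MYH2 and MYL2 of muscle were on none. The summed signal of the fibroblast list, in units of each array's 75th percentile, lay between 3.27 and 3.77 without tetracycline and between 3.61 and 3.75 with it. The leukocyte list summed to between 0.101 and 0.116 without tetracycline and between 0.103 and 0.126 with it, and the endothelial list to between 26.01 and 26.94 and between 24.99 and 27.72. In bulk RNA, fewer cells of a kind and less RNA per cell cannot be told apart.

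The 60 h difference was past 2-fold for 513 features that were higher with tetracycline (1.86% of those measured) and for 709 that were lower (2.57%), 1222 in all (4.43%). Among the 991 named genes, 33 were higher (3.33%) and 41 lower (4.14%), together 74 (7.47%). Past 4-fold there were 64 higher and 89 lower features, with 8 higher and 8 lower among the named genes. The median of all features was 0.00 and 81.4% of them lay within 0.5 of 0 on the log2 scale. When features were ranked by signal and divided into 4 equal bins, the dimmest bin held 2.32% higher and 3.56% lower features and the brightest 1.51% and 1.49%. With 1 array an arm there is no replicate check on any of these values, and no test was made at 60 h alone.

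**Figure D1:**
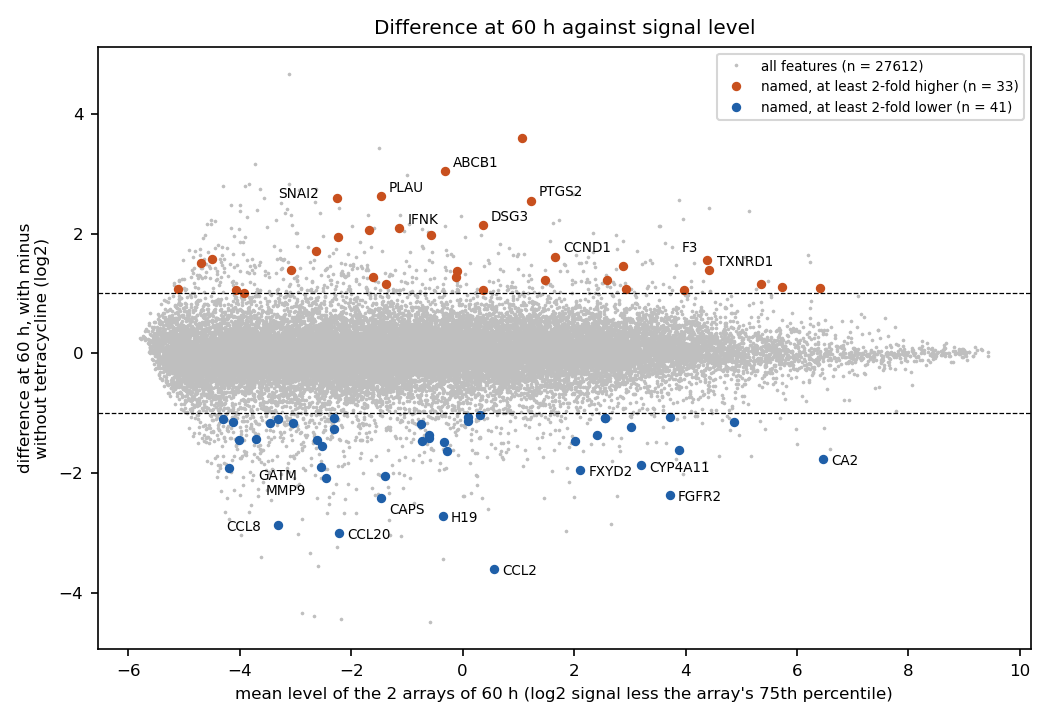
Each point is a feature well above background on both 60 h arrays, with the mean level of the 2 arrays (log2, relative to the 75th percentile) on the horizontal axis and the 60 h difference (log2, with minus without tetracycline) on the vertical axis; named genes past 2-fold are coloured. ABCB1 lies at 3.05 among the higher named genes, and CCL2 lies lowest of the named genes at -3.60.

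Technical error can be read from repeated spots, from several probes of a gene and from the scanner software's own error estimate. None of these holds the spread between cultures. On the log2 scale, the scanner software's error of the 60 h difference was 0.204 for CTSS, 0.241 for CASP12, 0.244 for KMO and 0.355 for KIF1A. These values are larger than the median over repeated spots given next. For 25 probes printed as 5 spots and well above background on both arrays, the 60 h difference had a median SD over spots of 0.0455 and a highest SD of 0.385. All 24 genes past 2-fold that had several detected probes were past 2-fold in 1 direction on every one of them. At the edge of the 2-fold line, CASP12 stood at 1.05 and KMO at 1.02 just inside, and ANXA1 at 0.95 just outside; on the lower side SULT1A1 at -1.06 and CTSS at -1.04 were inside and SLC29A1 and NPHP4, both at -0.98, outside. With the background corrected by normexp instead, 51 of the 74 named genes stayed past 2-fold. Those that did not were SLC2A9, PROM1, COL9A2, CEACAM1, BIRC3, KIF1A, CASP12 and KMO among the higher genes, and CTSS, ID3, SLC23A1, OPTC, NTF4, OR6AA6, SLC25A27, PDE6B, VLDLR, FABP1, GAD2, KCNJ16, PNLIPRP1, GUCY1B1 and CXCL10 among the lower; all kept their sign. Among the 51, normexp moved 8 by over 1.5 times: PLAU to 2.03, SNAI2 to 1.73, SLC7A11 to 1.34, HMOX1 to 1.11, GATM to -1.09, MMP9 to -1.31, CCL8 to -1.34 and CCL20 to -2.08. KMO, KIF1A, OPTC, NTF4, SLC25A27, NPHP4 and SLC29A1 are named here after their values were seen.

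Genes of clotting and of plasminogen were among those with high values at 60 h. PLAU, the urokinase that turns plasminogen into plasmin, stood at -2.78 without tetracycline and -0.16 with it, a difference of 2.63 or 6.18-fold. F3, tissue factor, which starts the extrinsic clotting cascade, stood at 3.60 and 5.16, a difference of 1.56 or 2.95-fold. Factor VII (F7), the partner of tissue factor, stood at -3.50 and -3.97, a difference of -0.47. That value lay within 0.5 of 0, as did 81.4% of all features, and was -0.20 with normexp.

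SNAI2 (Slug), a transcription factor that represses epithelial adhesion genes, stood at -3.56 without tetracycline and -0.96 with it, a difference of 2.60 or 6.05-fold. E-cadherin (CDH1) nevertheless stood at 2.48 and 2.99, a difference of 0.51 in the same direction. The desmosomal cadherin DSG3 stood at -0.71 and 1.43, a difference of 2.14 or 4.40-fold, and plakoglobin (JUP), which binds desmosomal cadherins inside the cell, differed by 0.43. The counts for gene lists that follow stand beside 3.33% of all named genes higher and 4.14% lower past 2-fold; the lists are short, and no list was tested. Of 7 measured members of the list of adherens junction, desmosome and keratin genes, 1 was past 2-fold and 5 were above 0, with a median of 0.43. Of 7 measured genes of the mesenchymal transition list, SNAI2 and CD44 were higher past 2-fold and the gelatinase MMP9 lower, while S100A4, a calcium-binding protein of motile cells, differed by -0.97.

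Cell surface adhesion receptors made up a further group. CD44, the hyaluronan receptor, stood at -0.75 without tetracycline and 0.52 with it, a difference of 1.27 or 2.41-fold. CEACAM1, a homophilic adhesion receptor, stood at -2.24 and -0.96, a difference of 1.28, and ICAM1, the ligand of leukocyte integrins, at 2.40 and 3.48, a difference of 1.08. PROM1 (prominin-1), a protein of membrane protrusions, stood at -5.45 and -3.94, a difference of 1.503, but it was dim on some of the earlier arrays. CD44, ICAM1 and PROM1 were the 3 of 8 measured members of the integrin and adhesion receptor list past 2-fold, and the list's median was 0.26.

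Secreted and lipid signals lay on both sides. PTGS2 (cyclooxygenase-2), the inducible enzyme of prostaglandin synthesis, stood at -0.06 without tetracycline and 2.50 with it, a difference of 2.55 or 5.87-fold. PTGES, the synthase that makes prostaglandin E2 from the product of that enzyme, went the other way, with 3.101 and 2.02, a difference of -1.08. CSF2 (GM-CSF), a myeloid growth factor, stood at 2.16 and 3.61, a difference of 1.45, and was the only one of 13 measured cytokine and TNF family members past 2-fold. IFNK, a type I interferon of keratinocytes, stood at -2.18 and -0.09, a difference of 2.09 or 4.27-fold. In the same arrays, none of 15 measured interferon-induced and antigen presentation genes was past 2-fold, and their median was -0.20, but CXCL10, which interferon also induces, was counted with the chemokines and was lower past 2-fold; MX1, an antiviral GTPase, differed by -0.90 and the immunoproteasome subunits PSMB8 and PSMB9 by -0.72 and -0.70. CD38, an NAD-consuming surface enzyme, stood at -1.55 and 0.43, a difference of 1.98 or 3.95-fold.

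Export pumps and redox genes were a further group with higher members. ABCB1, the multidrug exporter P-glycoprotein, stood at -1.85 without tetracycline and 1.20 with it, a difference of 3.05 or 8.29-fold. ABCC5, an exporter of cyclic nucleotides and conjugates, differed by 1.23, and these were the 2 of 7 measured ABC exporters past 2-fold; the median of the 7 was 0.01, and -0.05 with quantile normalisation. ABCB11, the bile salt pump, stood lowest in that list at -0.84. SLC7A11, the cystine importer that feeds glutathione synthesis, stood at -3.21 and -1.26, a difference of 1.94 or 3.85-fold. HMOX1, the haem-degrading enzyme, stood at -3.49 and -1.77, a difference of 1.71, and TXNRD1, thioredoxin reductase, at 3.72 and 5.12, a difference of 1.39. SLC7A11, HMOX1 and TXNRD1 were 3 of 14 measured genes of the NRF2 and oxidative stress list; the other members lay on both sides of 0 and the median was 0.01. ALDH3A1, an aldehyde dehydrogenase named after its values were seen, stood at 5.18 and 6.29, a difference of 1.11.

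Cell cycle and survival genes were split. CCND1 (cyclin D1), which drives the passage out of G1, stood at 0.85 without tetracycline and 2.46 with it, a difference of 1.62 or 3.07-fold. CDKN2B (p15), an inhibitor of the kinases that cyclin D1 activates, stood at 2.74 and 1.28, a difference of -1.46. They were the 2 of 15 measured cell cycle genes past 2-fold, and the list's median was -0.07. BIRC3, an inhibitor of apoptosis, differed by 1.16, and PMAIP1 (NOXA) and CASP12, which act in the opposite sense, by 1.06 and 1.05; these were 3 of 18 measured apoptosis genes, with a median of 0.12. MYC, a growth-promoting transcription factor, differed by 0.68 and the p53 antagonist MDM2 by 0.42.

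Other genes past 2-fold on the higher side had separate roles. SNAP91, a clathrin assembly protein best known from synapses, stood at -2.71 without tetracycline and -0.66 with it, a difference of 2.05 or 4.15-fold. UGCG, which makes glucosylceramide, stood at 4.78 and 5.94, a difference of 1.16. SLC2A1 (GLUT1), the glucose importer, stood at 5.87 and 6.96, a difference of 1.09; no other measured member of 11 in the hypoxia and glycolysis list was past 2-fold, and its median was -0.16. BHLHE41, a clock-related transcription factor, differed by 1.37, the chemokine CCL27 by 1.23, the collagen chain COL9A2 by 1.39 and the actin regulator VASP by 1.05. SLC2A9, a urate carrier, differed by 1.58 and was dim with tetracycline at both earlier times.

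**Figure D2:**
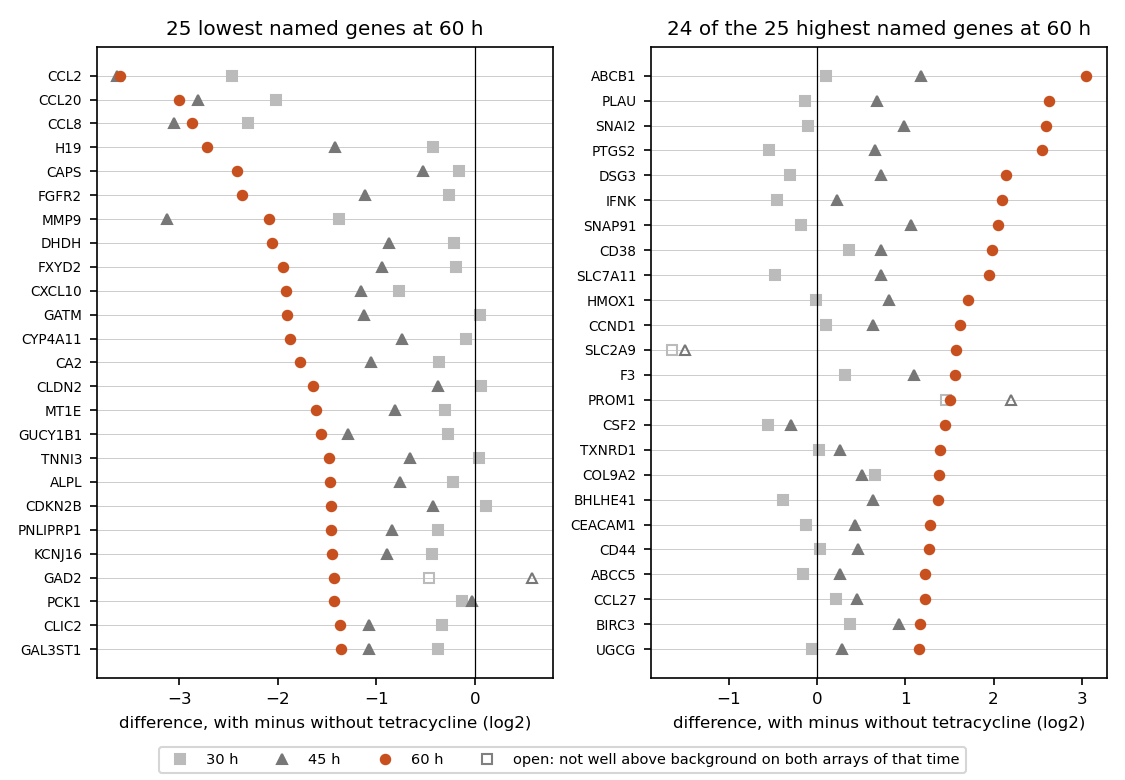
The 25 lowest (left) and 24 of the 25 highest (right) named genes at 60 h, each with its difference (log2, with minus without tetracycline) at 30 h (square), 45 h (triangle) and 60 h (circle); open symbols were not well above background on both arrays of that time. CCL2, CCL20 and CCL8 were already low at 30 h, whereas the higher genes were mostly near 0 there.

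On the lower side the chemokines led. CCL2, which attracts monocytes, stood at 2.36 without tetracycline and -1.24 with it, a difference of -3.60 or 12.1-fold. CCL20, the ligand of CCR6, stood at -0.72 and -3.73, a difference of -3.01, and CCL8, which also draws monocytes, at -1.87 and -4.75, a difference of -2.87. CXCL10, an interferon-induced chemokine for T cells, stood at -3.23 and -5.15, a difference of -1.92. These were the 4 lower members past 2-fold of 11 measured chemokine ligands and receptors; CCL27 was the 1 higher member, and the list's median was -0.06, or 0.00 with quantile normalisation. The gelatinase MMP9 stood at -1.41 and -3.49, a difference of -2.09, with its other detected probe at -1.39; of its 4 probes, 2 were detected, and 1 of those not detected lay above 0.

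Other lower genes included an imprinted RNA and a growth factor receptor. H19, an imprinted noncoding RNA, stood at 1.002 without tetracycline and -1.72 with it, a difference of -2.72 or 6.57-fold. IGF2, its imprinted neighbour that encodes a growth factor, differed by -0.69, and the receptor IGF2R, which clears that factor, by 0.17. FGFR2, a receptor of fibroblast growth factors, stood at 4.90 and 2.53, a difference of -2.36 or 5.15-fold, and was the only one of 12 measured growth factors and receptor tyrosine kinases past 2-fold. ID3, a BMP target that blocks helix-loop-helix factors, differed by -1.07. TAF12, part of the TFIID complex that starts transcription, stood at 0.66 and -0.48, a difference of -1.14.

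Tubule transport genes were lower in several cases. FXYD2, which tunes the sodium-potassium pump, stood at 3.09 without tetracycline and 1.14 with it, a difference of -1.95 or 3.87-fold. CA2, the cytosolic carbonic anhydrase, stood at 7.36 and 5.59, a difference of -1.77 or 3.41-fold. CLDN2, the claudin that forms cation-permeable pores in leaky epithelia, stood at 0.54 and -1.10, a difference of -1.64 or 3.12-fold. KCNJ16, a basolateral potassium channel subunit, differed by -1.45, the glutamate transporter SLC1A1 by -1.14 and the ascorbate transporter SLC23A1 by -1.08. Solute carriers as a list lay on both sides: of 17 measured, 3 were higher past 2-fold and 2 lower, with a median of -0.03. SLC1A1 was the lowest of the 17 and SLC7A11, at 1.94, the highest. Of 20 measured tubule water, ion and acid-base genes, 3 were lower past 2-fold, beside 4.14% of all named genes, and none higher, with a median of -0.11; of 6 measured tight junction genes CLDN2 alone was past 2-fold, with OCLN at 0.16 and CGN at -0.28. The summed signal of the tubule marker list was between 412.5 and 432 on the 3 arrays without tetracycline and between 300.1 and 341.7 on those with it. CA2, FXYD2 and KCNJ16 of that list are themselves among the lower genes. A sum weighs bright probes most, and at 60 h most of the fall between the arms lay in CA2. Of the 10 members measured at 60 h, 7 were below 0 and 3 above, with a median of -0.20.

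Several single enzymes were also lower; they belong to no 1 list and are not a tested group. CYP4A11, a fatty acid hydroxylase, stood at 4.14 without tetracycline and 2.26 with it, a difference of -1.88 or 3.67-fold. GATM, which makes the precursor of creatine, stood at -1.59 and -3.50, a difference of -1.90. PCK1, the committed enzyme of gluconeogenesis, stood at 0.12 and -1.31, a difference of -1.42, and FABP1, a fatty acid binding protein, at -1.67 and -2.95, a difference of -1.27. Of 10 measured sterol, fatty acid and lipoprotein genes 2 were lower past 2-fold and none higher, with a median of 0.01. DHDH, dihydrodiol dehydrogenase, differed by -2.06, alkaline phosphatase (ALPL) by -1.47 and the sulfotransferases GAL3ST1 and SULT1A1 by -1.36 and -1.06. ALDH1A1, a retinal dehydrogenase named after its values were seen, stood at 3.64 and 2.41, a difference of -1.23. Among metal, cholesterol and lysosomal genes, the metallothionein MT1E differed by -1.61, the lipoprotein receptor VLDLR by -1.18, the cholesterol carrier NPC2 by -1.08 and the protease cathepsin S (CTSS) by -1.04; 2 of 19 measured lysosome and autophagy genes were lower past 2-fold, 13 of 19 were below 0, and the median was -0.10.

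A last set of lower genes is known from other tissues. TNNI3, the cardiac inhibitory troponin, stood at 0.40 without tetracycline and -1.08 with it, a difference of -1.48. The summed signal of 7 named muscle markers at 60 h was 1.74 without tetracycline and 0.787 with it. At 30 h the sum was 0.489 and 0.474. TNNI3 is one of the 7. Most of the gap between the arms at 60 h, and of the rise without tetracycline from 30 h, lay in TNNI3. CAPS, a calcium-binding protein, stood at -0.25 and -2.67, a difference of -2.41 or 5.33-fold. GUCY1B1, a subunit of the nitric oxide receptor, differed by -1.56, CLIC2 of the chloride intracellular channel family by -1.37, the lipase-related PNLIPRP1 by -1.46 and the rod phosphodiesterase subunit PDE6B by -1.17. GAD2, a glutamate decarboxylase, differed by -1.43 and was well above background on the 2 arrays at 60 h only. PNLIPRP1, PDE6B and GAD2 had 1 detected probe each. Of all their probes, 2 of 3 for PNLIPRP1, 2 of 3 for PDE6B and 1 of 2 for GAD2 lay above 0, none of these detected. OR6AA6, an olfactory receptor, stood at -3.55 and -4.70, a difference of -1.15, whereas at 30 h and 45 h it had been 1.35 and 1.36 higher with tetracycline.

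**Figure D3:**
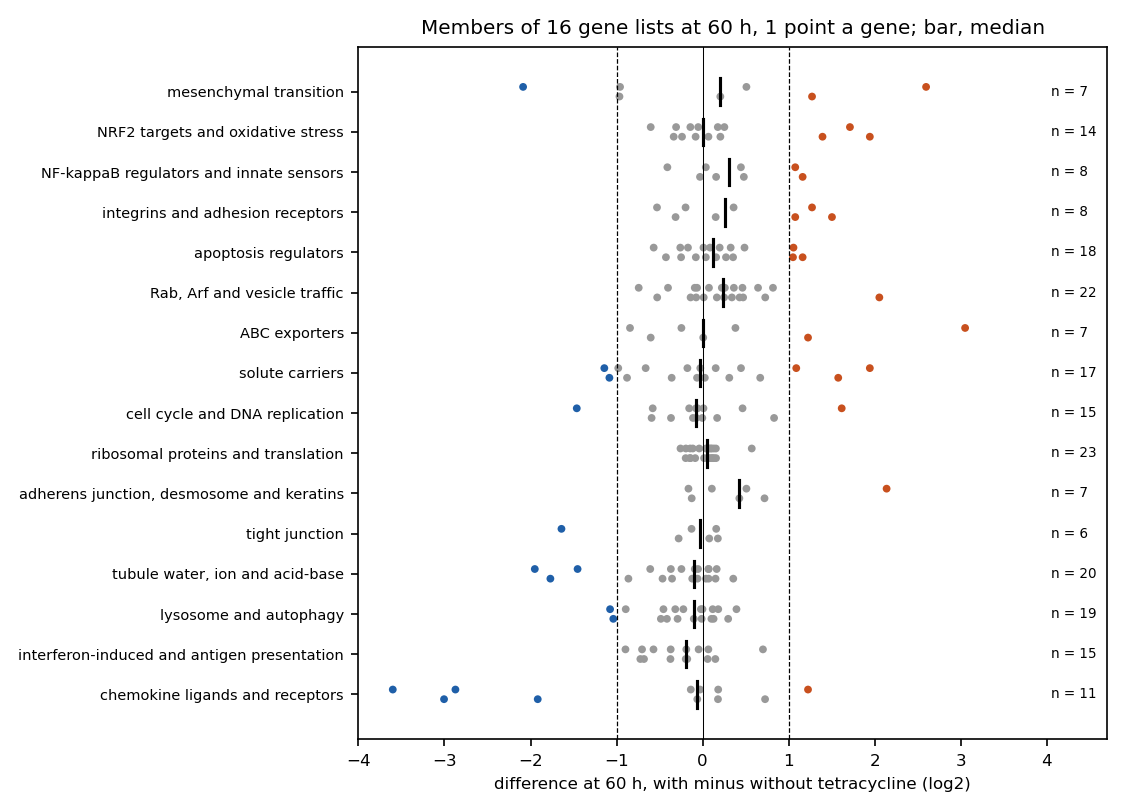
The 60 h difference (log2, with minus without tetracycline) of each measured member of a selection of the gene lists, 1 row a list, with the median of each list marked. Most members lie within 2-fold of 0, and the members beyond it fall on both sides in several lists.

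Some lists had no member past 2-fold in either direction. None of 23 measured ribosomal protein and translation genes was (median 0.06), nor any of 17 endoplasmic reticulum chaperone and translocon genes (median 0.14), 10 ubiquitin and proteasome genes (median -0.01), 8 MAP kinase and immediate early genes (median 0.17) or 5 heat shock genes (median -0.02). The endoplasmic reticulum list had 11 of 17 members above 0, led by the translocon subunit SEC61G at 0.61 and its partner SSR1 at 0.55. Of 22 measured Rab, Arf and vesicle traffic genes 15 were above 0, with a median of 0.24; SNAP91 was past 2-fold, and the Rab GTPases RAB2A and RAB10, which act in secretory traffic, stood at 0.82 and 0.73. Over all features, 50.4% were above 0 and 49.6% below. Only 3 genes of the polarity complexes could be measured, between -0.06 and 0.55. In all, 424 measured genes belonged to at least 1 of the 41 lists, and these held 24 of the 33 higher and 26 of the 41 lower named genes.

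Genes well above background on only 1 of the 2 arrays have a bound in place of a fold. The bound sets the detected level against the higher of the dim probe's own level and the lowest level detected on the other array. Of 74 such named genes, 8 were at least 2-fold higher with tetracycline (10.8%) and 19 at least 2-fold lower (25.7%), together 27 (36.5%), beside 12% and 12.3% of the 2179 such features. The peptidase KLK10 stood at -6.33, not well above background, without tetracycline and at -3.46 with it, at least 5.59-fold higher, and the sphingosine phosphate receptor S1PR1 at -6.07 and -4.23, at least 3.29-fold higher. On the lower side the bile acid transporter SLC10A2 stood at -3.03 without tetracycline and -7.65, not well above background, with it, at least 6.17-fold lower. The bitter taste receptor TAS2R7 was at least 13.1-fold lower, the calcium sensor recoverin (RCVRN) at least 10.3-fold and the peptidase KLK6 at least 5.01-fold; each of these 3 was well above background only on the array without tetracycline at 60 h. The desmosomal cadherin DSG1 was also well above background only on that array. It was at least 2.92-fold lower, a bound of -1.55 on the log2 scale and opposite in sign to DSG3. The scanner software's error of the 60 h difference lay between 1.444 and 1.448 for SLC10A2, TAS2R7, RCVRN, KLK6 and DSG1.

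How each arm moved from 30 h to 60 h was set beside these differences. Choosing genes by the 60 h difference partly fixes these moves, the 30 h arrays lay on another slide than the 60 h arrays, and the values are a description. Of the 33 higher named genes, the level with tetracycline was greater at 60 h than at 30 h in 32 and the level without it was smaller in 29; the arms moved in opposite directions in 28. The median move was 1.02 with tetracycline and -0.63 without it, beside 0.02 in each arm over all 991 named genes. Of the 41 lower genes, the level without tetracycline was greater at 60 h in 34, with a median move of 0.94, and the level with it was smaller in 26, with a median move of -0.31. The move without tetracycline was the larger of the pair in 26 of the 41 lower genes, and the move with tetracycline was the larger in 24 of the 33 higher ones.

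Single genes show both patterns. TXNRD1 stood at 4.60 and 3.72 without tetracycline at 30 h and 60 h, and at 4.62 and 5.12 with it, so the arms parted from one level. CSF2 went from 3.68 to 2.16 without tetracycline and from 3.13 to 3.61 with it, and CCND1 from 2.17 to 0.85 and from 2.26 to 2.46. F3 likewise went from 4.75 to 3.60 without tetracycline and from 5.07 to 5.16 with it; in these 3 genes the larger move was that without tetracycline. ABCB1 and SNAP91 show the other course, with moves of 2.32 and 2.23 with tetracycline and of -0.63 and -0.01 without it. On the lower side FXYD2 went from 1.29 to 3.09 without tetracycline and from 1.09 to 1.14 with it, and CAPS from -2.60 to -0.25 and from -2.76 to -2.67: the level with tetracycline stayed near its 30 h value while the other arm climbed. FGFR2 and H19 moved in both arms, FGFR2 by 0.85 without tetracycline and by -1.25 with it, and H19 by 0.45 and -1.85.

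Within 1 slide the same moves can be read over a shorter span. With tetracycline from 45 h to 60 h, both on the second slide, 31 of the 33 higher genes had a greater level at 60 h, with a median move of 0.74, whereas the 41 lower genes were divided, 19 greater and 22 smaller, with a median move of -0.05. Without tetracycline from 30 h to 45 h, both on the first slide, 35 of the 41 lower genes had a greater level at 45 h, with a median move of 0.31, and 26 of the 33 higher genes a smaller one, with a median of -0.33.

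**Figure D4:**
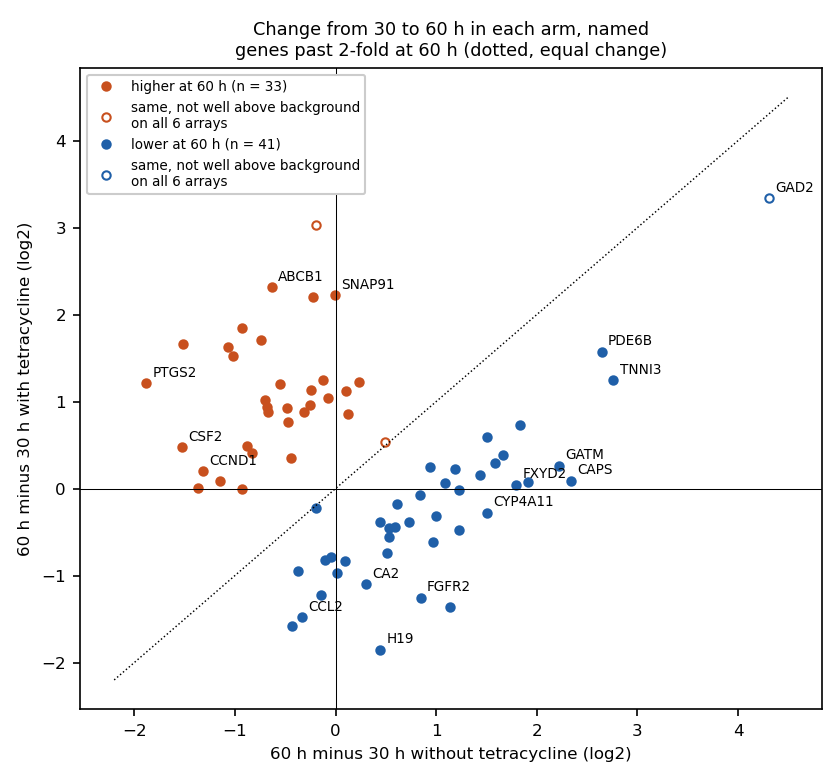
Each point is a named gene past 2-fold at 60 h, with its move from 30 h to 60 h without tetracycline on the horizontal axis and with tetracycline on the vertical axis (both log2), coloured by direction; open points were not well above background on all 6 arrays. Higher genes lie on or above the diagonal, with median moves of -0.63 and 1.02, and lower genes on or below it, with median moves of 0.94 and -0.31.

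Most of the named genes past 2-fold at 60 h had not reached 2-fold in that direction earlier, though more of the lower than of the higher genes had. At 45 h the array without tetracycline lay on the first slide and the array with it on the second, whereas each of the pairs at 30 h and 60 h shared a slide, so arm and slide cannot be told apart in the 45 h differences or in an order over the 3 times. Selection by the 60 h difference also partly fixes such an order, in both directions. Of the 33 higher named genes, 5 were past 2-fold in the same direction at 45 h and 1 at 30 h. These counts and the orders below did not require detection at the earlier times. The 1 gene at 30 h was PROM1, also among the 5, which was dim without tetracycline at 30 h and 45 h. SLC2A9, dim with tetracycline at both, is among the genes in ascending order. In 31 of them the differences ascended from 30 h through 45 h to 60 h, beside 25.1% of all 991 named genes. The medians of the 33 at the 3 times were -0.10, 0.51 and 1.39. Of the 41 lower genes, 13 were past 2-fold at 45 h and 5 at 30 h, and 34 were in descending order, with medians of -0.24, -0.76 and -1.45. Over all features the calls at 45 h were 213 higher (0.755%) and 342 lower (1.21%), 1.97% in all, and at 30 h 80 higher (0.296%) and 137 lower (0.507%), 0.803% in all. PTGS2 had differences of -0.54, 0.66 and 2.55 at the 3 times. CSF2 had -0.55, -0.30 and 1.45, and SLC7A11 had -0.48, 0.73 and 1.94. These 3 were lower with tetracycline at 30 h and higher at 60 h, but such a change of sign was common among the higher genes. Only 13 of the 33 higher genes had the same sign at 30 h as at 60 h, beside 34 of the 41 lower genes. Most 30 h values were small: 28 of the 33 and 34 of the 41 lay within 0.5 of 0. CCL2, CCL20 and CCL8 had differences of -2.46, -2.02 and -2.30 at 30 h already, and TAF12 had -1.12, -1.09 and -1.14 throughout. MMP9 was furthest from 0 at 45 h, at -3.12.

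**Figure D5:**
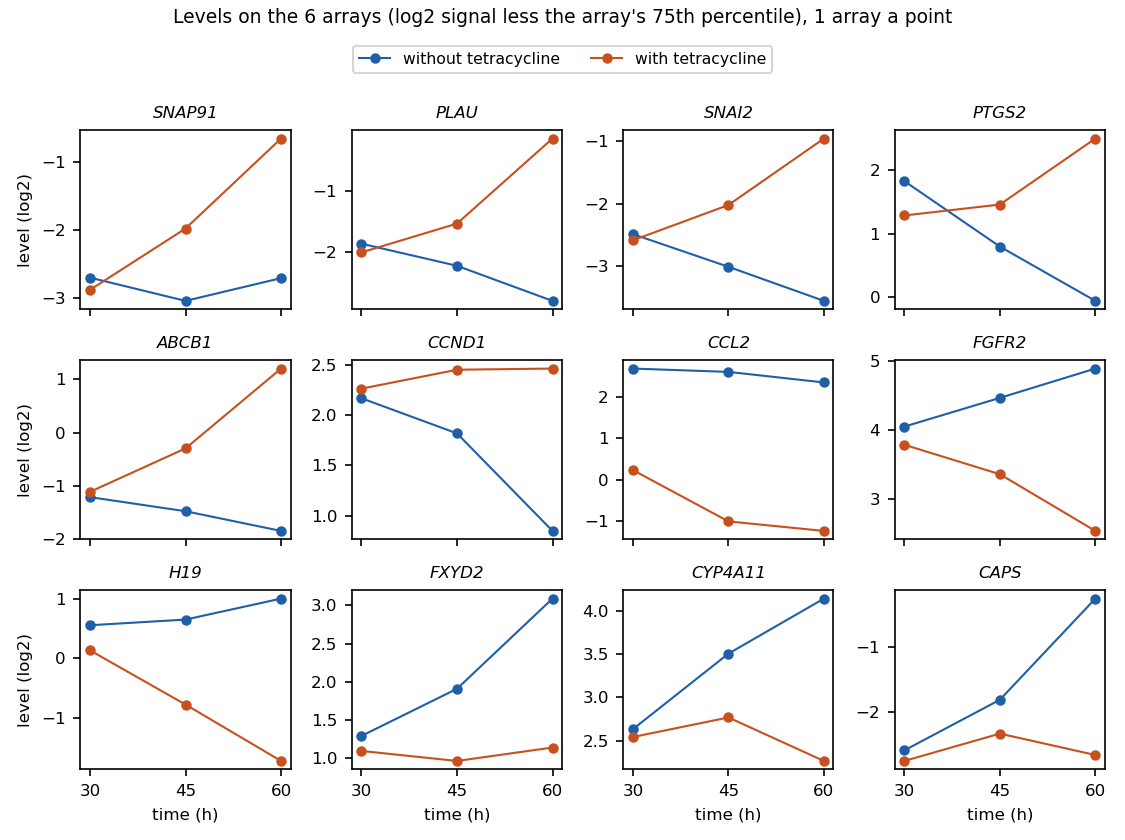
Levels (log2, relative to each array's 75th percentile) of selected leading genes at 30 h, 45 h and 60 h after addition, with and without tetracycline, 1 array a point and so with no error bar. In FXYD2 and CAPS the line without tetracycline climbs to 3.09 and -0.25, whereas in ABCB1 and SNAP91 the line with tetracycline climbs to 1.20 and -0.66.

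Tests were possible only over the 3 times. limma fitted the 60 h difference against the mean of the differences at 30 h and 45 h with 1 residual degree of freedom, and 0 of 27612 features passed an adjusted p of 0.05 (lowest 0.502), with 2744 (9.94%) at an unadjusted p under 0.05. The difference between the arms over the 3 times, taken with time as a block, also gave 0 calls (lowest adjusted p 0.115) and 6345 features (23%) at an unadjusted p under 0.05. Among the 74 named genes past 2-fold at 60 h, limma's adjusted p for the arm lay between 0.115 and 0.873. A p that misses the threshold does not show that these genes did not differ, and each such p measures only the spread between times. When the scripts were tested on data with known changes, the fit of the 60 h difference called 0 of 100 changes at 2-fold. It also called 0 of 100 at 4-fold, so its 0 calls above cannot tell change from no change. The fit of the arms over the 3 times called 46 of 100 at 2-fold and 78 of 100 at 4-fold, with the same change put in at all 3 times. Changes that grow with time were not simulated for that fit. Its 46 and 78 calls therefore do not say how many changes confined to 60 h it would find. Both fits include the 45 h pair, which spans both slides.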

How the data were processed

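RNA of MDCK-II scribKD cells was hybridised to 6 one-colour Agilent dog arrays, and the deposited values are scanner intensity made with Agilent Feature Extraction 11.5.1.1, per the submitters' processing notes; per the file headers the protocol was GE1_1105_Oct12 and probe positions refer to CanFam3.1. The processed signal was taken as deposited, log2 transformed, and reduced by each array's 75th percentile over non-control spots; outlier spots were dropped and spots of a probe averaged. Genes were named by accession through a RefSeq table (assembly UU_Cfam_GSD_1.0, names only): 2348 of 2441 NM_ and 5 of 5 NR_ probes matched, giving 1437 genes, and 0 of 3746 XM_ and 0 of 19070 Ensembl probes. R 4.3.3 and limma 3.58.1 were used, and the scripts were tested on simulated data. Mean signal was not among the columns, so normexp with an offset of 50 used the median signal and background. This was added after the files were seen.

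The text names the 25 highest and 25 lowest genes, up to 12 bounded genes a direction, list members past 2-fold or else the furthest from 0, and 6 a direction with the largest late change. The members and the gene lists were chosen with earlier results of these data known. Nothing says that the 3 wells of an array were separate experiments. Depth does not apply to arrays; their number limits the precision. Some results that this rule selects are not reported here.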

Additional observations from a re-analysis of the deposited data

How the results depend on the processing

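Each arm at 60 h is 1 array, so no result has a replicate check, and spots near background limit what dim genes can show. The fit over the 3 times has time as a block and so pairs the arms by time. No paired analysis by replicate was possible because each group holds 1 array. In every setting more features, and more named genes, were lower than higher past 2-fold. List members past 2-fold were 24 higher and 26 lower as reported, but 20 higher and 18 lower with normexp. Some values near 0 changed sign. With quantile normalisation the median of the chemokine list went from -0.06 to 0.00 and that of the ABC exporters from 0.01 to -0.05.

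The count of features higher past 2-fold, 513 as reported, was 230 with normexp on the median signal (an alternative chosen after seeing the data), 908 with features well above background on at least 1 array and 1430 with no filter; the lower count, 709, was 300, 1364 and 2033. At 1.5-fold the counts were 1811 higher and 2045 lower, and at 3-fold 131 and 215. For named genes, 33 higher and 41 lower as reported, they were 68 and 94 at 1.5-fold, 12 and 15 at 3-fold, 73 and 88 with no filter, and 50 and 68 with each probe counted. Named lower genes numbered 26 with normexp and 70 with at least 1 array. Normexp kept 51 of the 74 named genes past 2-fold, 25 higher and 26 lower; among those it moved inside 2-fold were CXCL10 at -0.74, PROM1 at 0.30, SLC2A9 at 0.51, GAD2 at -0.64 and KCNJ16 at -0.85. Quantile normalisation kept all 74. The test of the arms over the 3 times made 0 calls as reported, 1 without the 30 h pair, 16 with a trended robust prior and 134 with normexp. The causes were not tested.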

Other observations

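Among features with no gene name, 4 probes lay beyond every named gene or near the furthest of them. A_11_P0000033966 stood at -5.45 without tetracycline and -0.79 with it at 60 h, a difference of 4.66, and A_11_P123656 at -3.22 and 0.21, a difference of 3.43. On the lower side A_11_P0000031254 stood at 1.66 and -2.83, a difference of -4.49, and A_11_P124086 at 0.04 and -4.41, a difference of -4.45. Both lower probes were already at -1.16 and -1.80 at 30 h, while the higher probes stood at -0.43 and -0.04 there.

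Over the 27612 features well above background on both 60 h arrays, whether or not they were so earlier, the 60 h and 45 h differences correlated at r = 0.649 and the 60 h and 30 h differences at r = 0.264. These are descriptions over features, which are not independent, and the 45 h pair spans both slides.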
